A study of Rattus norvegicus with 6 samples.

Results

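The genes described here were expressed in rat cardiac myoblasts carrying an empty vector and were at least 3 times lower in every library of 2 BMPR2 mutants. They were chosen on their measured levels, given as CPM, the counts of a gene per 1000000 counts in all genes of a library. A gene was taken when its lowest CPM over both empty vector libraries reached 1 and also reached 3 times its highest CPM over the 4 mutant libraries, with mutant counts under 3 raised to 3. The rule took 67 of 26404 genes, or 0.608% of the 11024 genes that reached 1 CPM in both empty vector libraries. All 67 passed the filter on low counts, which the empty vector level alone was enough to pass. The same rule turned round, for genes higher in every mutant library than in both empty vector libraries, took 3 genes, or 0.0283% of 10587.

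RNA with polyA tails was sequenced from H9c2 cells, a myoblast line from embryonic rat heart that keeps some features of cardiac and skeletal muscle (one label spells it Hc92). There were 3 groups of 2 libraries: cells with an empty vector, cells with a BMPR2 tail domain mutant and cells with a BMPR2 kinase domain mutant. The sample titles speak of mutants and the series' design text of cells that lack the domain. How the cells were made, whether a group is 1 clone and whether the replicates are separate cultures is not given in the labels used here, so every spread below may be technical.

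BMPR2 is a type II receptor for bone morphogenetic proteins. On ligand binding it phosphorylates a type I receptor through its kinase domain, and the type I receptor in turn activates SMAD transcription factors that switch target genes such as the Id family. Its long cytoplasmic tail binds other signalling and cytoskeletal proteins and is not needed for SMAD activation in many cell types. BMP signalling is known in heart and muscle precursors for its part in fate choice and in holding back differentiation, and mutations of BMPR2 in people underlie heritable pulmonary arterial hypertension.

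The deposited files give Ensembl identifiers without names, and the gene table used here pairs 0 of its 47357 genes with an Ensembl identifier. No member could therefore be given a name, a function, a position or a promoter, and neither Bmpr2 nor muscle markers were looked up to check the labels. The members are numbered from 1 to 67 by falling ratio of lowest empty vector CPM to highest mutant CPM, and an identifier is printed for the first 2. Without a stated strand setting for the counting, reads of a member and of an overlapping antisense gene cannot be told apart.

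The libraries held 19116082 to 24936136 counts in genes, at which a floor of 3 counts stands for 0.120 to 0.157 CPM. Of the mutant libraries, tail mutant replicate 2 held the highest CPM of the 4 in 52.2% of the 11024 expressed genes, against 15.5% to 16.3% in each of the other 3. CPM is not scaled for composition, and with TMM scaling the share was 36.3%, against 17.8% to 23.2%. Among the 67 members it was the highest in 16, tail mutant replicate 1 in 15, kinase mutant replicate 1 in 23 and kinase mutant replicate 2 in 13. These counts rest on values the rule used, and in 11 members on 3 reads or fewer. Leaving out tail mutant replicate 2 raised the number of genes that met the rule from 67 to 92.

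**Figure D1:**
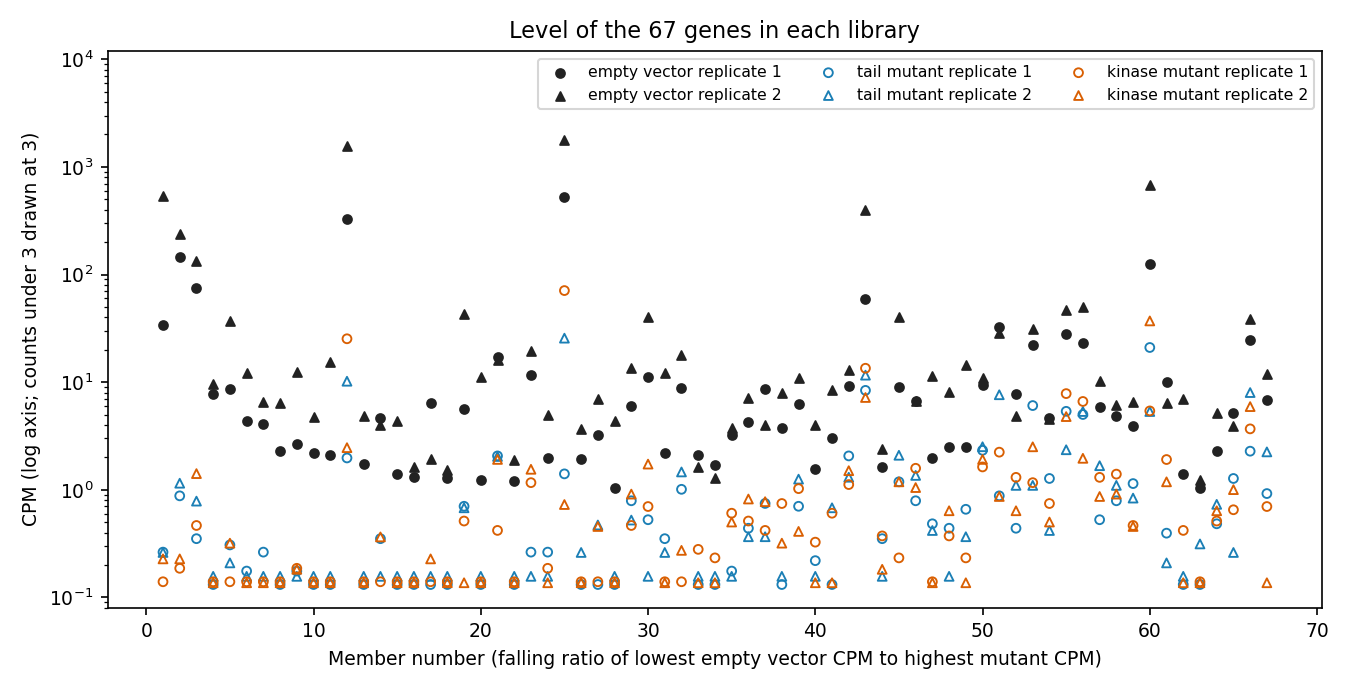
CPM of each of the 67 members (log vertical axis, counts under 3 drawn at 3) in each of the 6 libraries, by member number on the horizontal axis. Filled black symbols are empty vector libraries and open symbols mutant libraries, with circles for replicate 1 and triangles for replicate 2. The black triangles lie above the black circles in 55 of the 67 members, and the open symbols of members 12, 25 and 60 spread widely.

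Most members stood at a modest level in empty vector, and 39 of the 67 were under 1 CPM in every mutant library. The mean empty vector CPM had a median of 6.66 over members and ranged from 1.14 to 1143, with 46 members under 10 CPM, 14 between 10 and 100 CPM and 7 above. The ratio that chose them had a median of 5.50. It reached 10 or more in 14 members, lay between 5 and 10 in 24 and between 3 and 5 in 29. Set against the group means, with mutant counts under 3 raised to 3, the mean empty vector CPM was a median of 14.98 times the tail mutant mean (range 4.22 to 1082) and 15.5 times the kinase mutant mean (range 4.73 to 1545). Over the 11024 expressed genes the same medians were 1.02 and 1.14. Both ratios share their empty vector libraries and the rule used these contrasts, so the values describe the choice.

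ENSRNOG00000010158, member 1, had 33.9 and 534 CPM in empty vector replicates 1 and 2. It had 0.263 and 0.262 CPM in the tail mutant and 0.140 and 0.228 CPM in the kinase mutant, from 6, 5, 3 and 5 reads. Every mutant library was thus close to the floor of counting, while the empty vector libraries differed 15.8-fold from each other. Read from replicate 1 alone the gene was 129 times its highest mutant level, and read from replicate 2 alone 2028 times. The empty vector mean was 284 ± 354 CPM, the tail mutant mean 0.263 ± 0.00135 CPM and the kinase mutant mean 0.184 ± 0.0624 CPM (SD, n = 2). With 3 to 6 reads per mutant library, the mutant SDs do not measure how precisely these levels are known.

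ENSRNOG00000006052, member 2, had 144 and 240 CPM in the empty vector libraries, 0.878 and 1.15 CPM in tail mutant libraries 1 and 2 and 0.186 and 0.228 CPM in the kinase mutant. Its empty vector libraries were 1.66-fold apart. The kinase mutant counts of 4 and 5 reads were close to the floor, and the tail mutant counts of 20 and 22 reads lay above it without overlap. Its ratio of 126 was almost that of member 1, from a steadier empty vector level of 192 ± 67.9 CPM (SD, n = 2).

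Member 3 had 74.5 and 134 CPM in empty vector, 0.351 and 0.785 CPM in tail mutant libraries 1 and 2 and 0.466 and 1.41 CPM in the kinase mutant. Member 4 had 7.74 and 9.71 CPM in empty vector, from 193 and 197 reads, and 2 and 1 reads in the tail mutant against 0 and 0 in the kinase mutant. These 2 genes, like member 2, combined empty vector libraries within 2-fold of each other with a loss that was deep in all 4 mutant libraries. Member 5 had 8.62 and 37.3 CPM in empty vector and between 0.0466 and 0.319 CPM in the mutant libraries.

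EdgeR's quasi-likelihood test of both mutants against empty vector, with Benjamini-Hochberg adjustment over 12221 genes, called 4 genes, or 0.0327%. All 4 were members, namely members 2, 3, 4 and 23, with adjusted p-values of 0.00115, 0.0265, 0.0265 and 0.0265. Taken singly against empty vector, each mutant had 1 called gene, or 0.00818%, which was member 2 in both. The rule used these contrasts, so no support is read from the calls. Member 1, with the largest ratio of all, was not called (adjusted p = 0.102 for both mutants in edgeR). These calls shifted with single libraries: the count of 4 for both mutants became 12 and 2 when empty vector replicates 1 and 2 were left out in turn, 0 when tail mutant replicate 1 was left out and 1 when any other mutant library was.

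How far the word lost applies differed between members. In 11 members no mutant library held more than 3 reads, so that they were at or under the floor of counting. Their empty vector means were low, from 1.41 to 8.72 CPM, and their ratios, which the floor limits, ran from 6.64 to 49.3. Members 13 and 28 were the emptiest of the 11 in the mutants, each with 1 read over the 4 mutant libraries. Member 13 had 43 and 98 reads in empty vector, and member 28 had 26 and 89. In member 20 the kinase mutant libraries held 1 read each and the tail mutant libraries 0, against 31 and 228 reads in empty vector.

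A further 28 members had more than 3 reads in some mutant library and stayed under 1 CPM in all 4. Their highest mutant level ran from 0.176 to 0.912 CPM and their ratio had a median of 5.66. Member 1 belongs here.

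The last 28 members kept at least 1 CPM in a mutant library. This holds for at least 1 of the 4 libraries and does not mean that a gene was kept in all of them. Member 2 and member 3 are among these 28, with very large ratios. The empty vector mean of these 28 had a median of 16.1 CPM, above that of the others, and their ratio a median of 3.77. The rule and the split favour a higher level here. A mutant library at 1 CPM or more requires at least 3 times its level in both empty vector libraries. In 4 of these 28, members 42, 43, 50 and 58, the mutant libraries lay within 2-fold of each other. Member 50 was the most even of them, with 9.46 and 10.9 CPM in empty vector, 2.33 and 2.51 CPM in tail mutant libraries 1 and 2 and 1.63 and 1.91 CPM in the kinase mutant. Its mutant level was even and well above the floor. Member 43 had 59.6 and 401 CPM in empty vector, 8.39 and 11.6 CPM in tail mutant libraries 1 and 2 and 13.5 and 7.20 CPM in the kinase mutant. Here the mutant libraries were even and the empty vector libraries were 6.73-fold apart.

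Some of the most abundant members were uneven among the mutant libraries. Member 25, the highest in empty vector with 524 and 1762 CPM, had 1.41 and 25.6 CPM in tail mutant replicates 1 and 2 and 71.0 and 0.729 CPM in kinase mutant replicates 1 and 2. Its highest mutant library stood 97.3 times above its lowest, and in each mutant one library was high and the other low. Member 12 had 331 and 1565 CPM in empty vector, 1.98 and 10.2 CPM in tail mutant libraries 1 and 2 and 25.3 and 2.46 CPM in the kinase mutant. It was high in the same mutant libraries as member 25, tail mutant replicate 2 and kinase mutant replicate 1.

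Member 41 showed that arrangement at a low level, with 0 and 13 reads in the tail mutant and 13 and 0 in the kinase mutant. Its empty vector libraries had 3.05 and 8.43 CPM. Member 60 was arranged the other way, with 21.0 and 5.34 CPM in tail mutant replicates 1 and 2 and 5.40 and 37.1 CPM in kinase mutant replicates 1 and 2, against 125 and 678 CPM in empty vector. For these 4 members the difference between the replicates of a mutant exceeded the difference between the mutants. Over all 67 members the highest mutant library was a median of 2.50 times the lowest, against 1.53 over the 11024 expressed genes, with counts under 3 raised to 3. Most members are low, and the part of counting error in this ratio was not tested.

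Member 51 was held up by a single mutant library: it had 32.7 and 28.7 CPM in empty vector and 0.878, 7.64, 2.24 and 0.866 CPM in the mutant libraries, listed as tail mutant 1, tail mutant 2, kinase mutant 1 and kinase mutant 2. Member 53 was high in tail mutant replicate 1 instead, with 6.06, 1.10, 1.16 and 2.51 CPM in the same order against 21.9 and 31.1 CPM in empty vector. The ratio of each therefore understates the gap to the other 3 mutant libraries.

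The empty vector replicates differed from each other in most members, and in 1 direction. The level was higher in replicate 2 in 55 of 67 members (82.1%), where 37.1% of the 11024 expressed genes were higher in that library. It was at least 2-fold higher there in 32 members (47.8%), against 2.06% of expressed genes. With TMM scaling, which brings the median ratio of the replicates over expressed genes to 0.998, these shares were 86.6% against 49.6% for higher at all and 49.3% against 2.47% for at least 2-fold. Replicate 1 was at least 2-fold higher in 2 members (2.99%), against 1.41%. The level in replicate 2 was a median of 1.80 times that in replicate 1 over members and 0.932 times over expressed genes. The rule treated the 2 empty vector libraries alike, but it used the values of both. The expressed genes were not chosen for standing above the mutants, so these shares are a description only. With 1 library on each side there is no test of this difference.

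The difference from other genes was also present at low level. Among the 52 members whose lowest empty vector CPM lay between 1 and 10, replicate 2 was at least 2-fold higher in 48.1%, against 4.94% of the 2776 other genes of that level, a background more than 2 times that over all expressed genes. By remaining mutant level, replicate 2 was higher in 11 of the 11 members with at most 3 reads per mutant library. It was higher in 23 of the 28 under 1 CPM and in 21 of the 28 that reached 1 CPM in a mutant library. The share over all expressed genes was 37.1%, and the rule used the members' values. Together the 67 members took 0.168% of the counts of empty vector replicate 1 (95% Wilson interval 0.166% to 0.169%) and 0.605% of those of replicate 2 (0.602% to 0.609%). Intervals and floors here cover counting error only. The 7 members at 100 CPM or more (members 1, 2, 3, 12, 25, 43 and 60) held 77.0% of the members' counts in replicate 1 and 87.8% in replicate 2. In the mutant libraries the 67 members took between 0.00799% and 0.0162%.

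**Figure D2:**
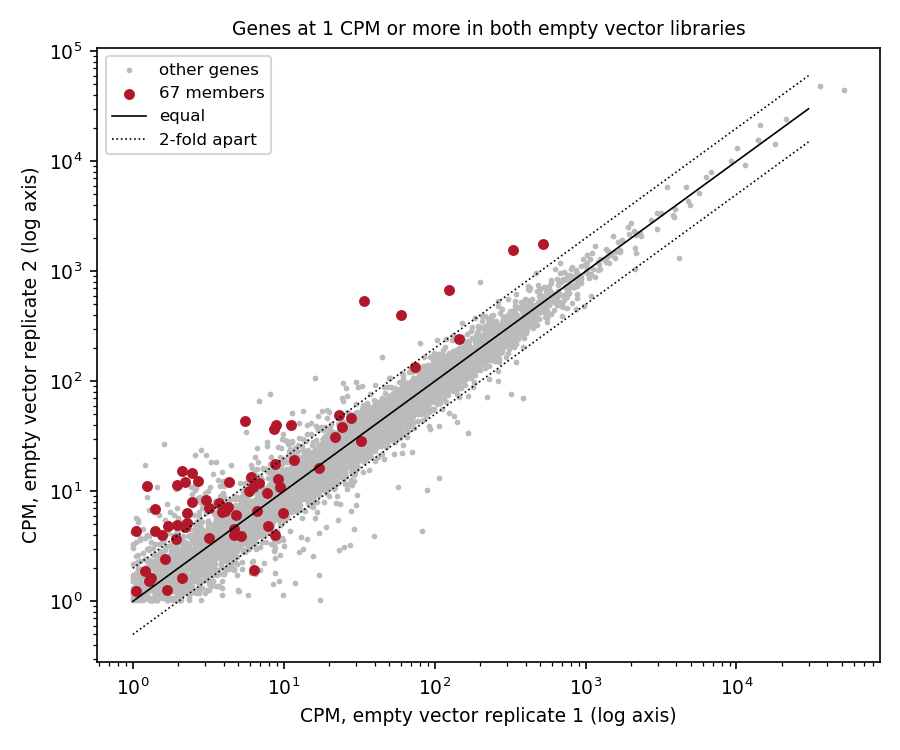
CPM in empty vector replicate 1 (horizontal) and replicate 2 (vertical), both on log axes, for the 11024 genes at 1 CPM or more in both libraries. Red points are the 67 members and grey points the other genes; the solid line marks equal levels and the dotted lines a 2-fold difference. 32 red points lie on or above the upper dotted line and 2 on or below the lower one.

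The 12 members that were not higher in replicate 2 included several with the steadiest control levels. Member 46 had 6.66 and 6.65 CPM in empty vector, 0.790 and 1.36 CPM in tail mutant libraries 1 and 2 and 1.58 and 1.05 CPM in the kinase mutant. Member 21 had 17.0 and 16.2 CPM in empty vector and 2.06, 2.04, 0.419 and 1.91 CPM in the mutant libraries, the 0.419 being kinase mutant replicate 1. For these genes the gap to the mutants was many times the spread between the controls. The rule asked for a gap, and these genes were picked for steady controls, so the comparison describes the choice. Member 17 had the largest difference in this direction, with 6.38 and 1.92 CPM in empty vector, 0 and 0 reads in the tail mutant and 1 and 5 reads in the kinase mutant. The empty vector libraries lay within 1.5-fold of each other in 18 members in all.

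Leaving out a library can only add genes to the rule, and the 6 libraries did so very unequally. Without empty vector replicate 1 the rule took 281 genes, 214 more than with it. Without empty vector replicate 2 it took 88, and without a mutant library between 77 and 92. Far more genes thus met the rule on replicate 2 alone than on replicate 1 alone. Of the 214 genes that joined without replicate 1, 148 were above all 4 mutant libraries in replicate 1 as well. There they missed the level or the fold that the rule asks. Of the 6 libraries, empty vector replicate 1 thus lowered the number of genes most.

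**Figure D3:**
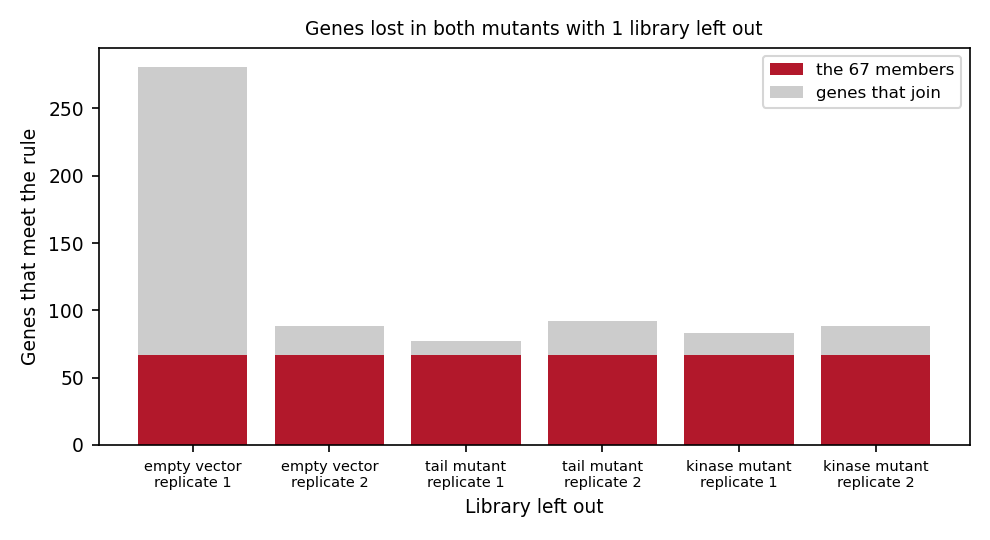
Number of genes that met the rule (vertical axis, from 0) when the library named on the horizontal axis was left out. The red part of each bar is the 67 members, which all remain, and the grey part the genes that join: 214 without empty vector replicate 1 and 10 to 25 without any other library.

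The contrast between the mutants asks whether the members were reduced to a different level in one of them. The rule treats the 4 mutant libraries alike but bounds the highest of them, which limits the difference a member can show, and the members entered the fit through their empty vector level, so the counts here are a description only. No difference passed. EdgeR with Benjamini-Hochberg adjustment called 0 of the 67 members and 0 of 12221 genes (0%), with adjusted p-values of 0.926 to 0.997 for members, and DESeq2 called 9 genes, 0 of them members. An unadjusted p below 0.05 in edgeR was found for 7 members (10.4%), against 3.67% of all genes tested, and 3 of these were higher in the tail mutant and 4 higher in the kinase mutant. The libraries of the tail mutant and kinase mutant did not overlap in 25 members (37.3%), against 32.8% of all genes tested, of which 14 were higher in the tail mutant and 11 higher in the kinase mutant. Between 20 and 27 members held at most 3 reads in a given mutant library, so that many of these comparisons rest on few reads.

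Of the 7 members with an unadjusted p below 0.05, those higher in the tail mutant were members 2, 4 and 32. Member 32 had 1.01 and 1.46 CPM in the tail mutant and 0.0466 and 0.274 CPM in the kinase mutant, against 8.74 and 17.8 CPM in empty vector. Its log2 difference between the mutants was 2.76 ± 0.75 (SE). For member 2, whose values stand above, it was 2.13 ± 0.51 (SE), and for member 4 the difference lies between 3 reads in all and 0, below the floor in both mutants.

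Those higher in the kinase mutant were members 23, 35, 38 and 61. Member 23 had 0.263 and 0.157 CPM in the tail mutant and 1.16 and 1.55 CPM in the kinase mutant, against 11.6 and 19.3 CPM in empty vector, a log2 difference of -2.75 ± 0.51 (SE). Member 61 had 0.395 and 0.209 CPM in the tail mutant and 1.91 and 1.19 CPM in the kinase mutant, against 9.95 and 6.41 CPM in empty vector, a log2 difference of -2.42 ± 0.53 (SE). In both genes the loss was deeper in the tail mutant in each library. Member 35 had 4 and 2 reads in the tail mutant and 13 and 11 in the kinase mutant. Member 38 had 2 and 1 reads in the tail mutant and 16 and 7 in the kinase mutant. None of the 7 passed after adjustment (adjusted p = 0.926 in edgeR for each).

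**Figure D4:**
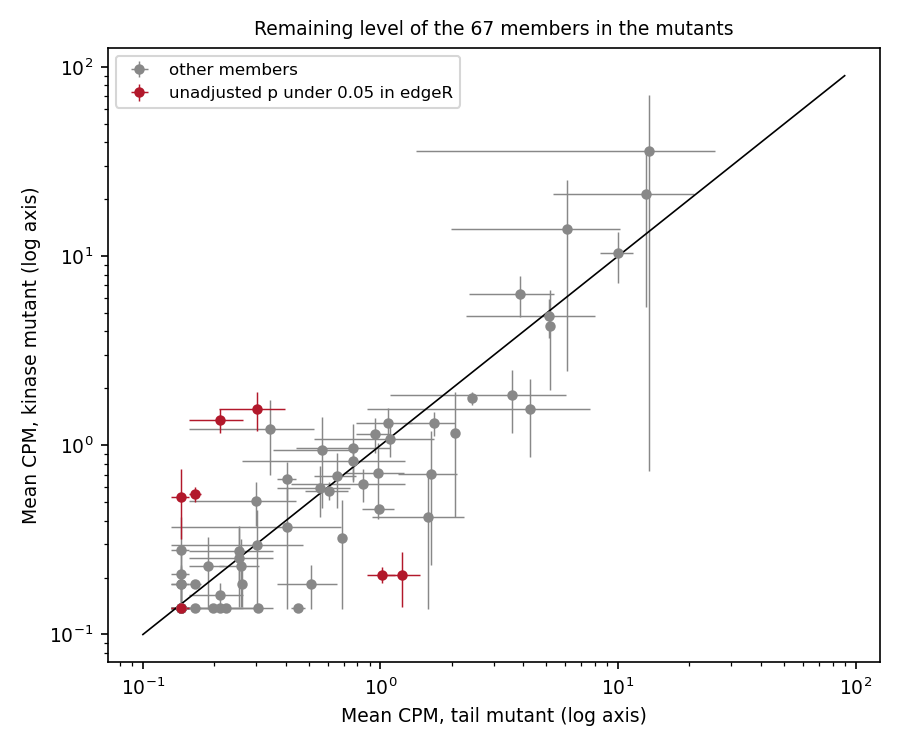
Mean CPM of each of the 67 members in the tail mutant (horizontal) and the kinase mutant (vertical), on log axes with counts under 3 raised to 3. Bars run from the lower to the higher of the 2 libraries of a group, the line marks equal means, and red points had an unadjusted p below 0.05 in edgeR. Points lie on both sides of the line, and the bars of the abundant members 12, 25 and 60 are long in both directions.

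At the edge of the rule, the last members inside were 65, 66 and 67, with ratios of 3.10, 3.06 and 3.05. The first 3 genes outside had ratios of 2.9996, 2.97 and 2.97. Member 67 had 6.86 and 12.0 CPM in empty vector, 0.922 and 2.25 CPM in tail mutant libraries 1 and 2 and 0.699 and 0.0456 CPM in the kinase mutant. The first gene outside had 5.33 and 10.2 CPM in empty vector, 0.790 and 0.471 CPM in tail mutant libraries 1 and 2 and 0.419 and 1.78 CPM in the kinase mutant. The values on both sides are alike, so the border at 3-fold marks no gap in the data.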

How the data were processed

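RNA-seq count files of 6 libraries were used, 1 file per library, each with 26404 rows for genes and 5 closing rows for other reads. The authors deposited raw counts per Ensembl rat gene. Per the submitters' processing notes, Trimmomatic 0.33, STAR 2.4.0 and HTSeq 0.6.1p1 were used with the Rnor_5.0 build. The sources used here give no strand setting, annotation release or filter. The 5 closing rows entered neither library sizes nor tests.

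CPM used the sum of gene rows. Tests were edgeR 4.0.16 quasi-likelihood fits in R 4.3.3 on all 6 libraries, with group as the only term, TMM scaling and filterByExpr (minimum count of 10, total of at least 15), which kept 12221 genes, and Benjamini-Hochberg adjustment with a threshold of 0.05. The edgeR fit was tested on simulated counts for the contrast between the mutants only. The rule was tested on a small made table with known answers. Alternatives were DESeq2 1.42.0, limma-voom (limma 3.58.1), other scalings and filters, fewer libraries, a replicate block and other settings of the rule. The rule for named genes took genes with a symbol and at most 2 without, so the 2 members with the largest ratio are given by identifier. The other members described were chosen after their values were seen. The members, lists and tests were chosen with earlier results of these data known. Gene lists written by symbol could not be applied.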

Additional observations from a re-analysis of the deposited data

Results flagged for a closer look

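Reads in no annotated gene, a row of the files that no comparison uses, took a higher share in every mutant library than in both empty vector libraries. The share was 16.2% and 17.5% of all rows in the tail mutant and 17.4% and 16.1% in the kinase mutant, against 15.4% and 15.4% in empty vector. The lowest mutant library stood at 16.1%. All rows include reads without a unique alignment, whose share differed between libraries and was highest in empty vector replicate 1. It was 31.5% and 27.6% in empty vector, 29.3% and 30.9% in the tail mutant and 27.3% and 28.6% in the kinase mutant. The gap in reads in no annotated gene thus depends on this denominator, and other denominators were not tested. Whether reads of the members are among the reads in no annotated gene was not tested.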

How the results depend on the processing

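The number of genes lost in both mutants, 67, became 111 at 2-fold, 38 at 5-fold and 18 at 8-fold, and 28 with a minimum of 5 CPM. It ranged from 77 to 281 with 1 library left out, the 281 being without empty vector replicate 1, and stayed between 61 and 86 with a minimum of 0.5 CPM, other scalings or no floor. Empty vector replicate 2 was higher in 58 of 67 members with TMM or DESeq2 scaling, and in 16 of the 18 members at 8-fold. Over expressed genes that share rose from 37.1% to 49.6% with TMM, a comparison added after seeing the data.

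Between the mutants, DESeq2 called 9 genes where edgeR called 0, and edgeR and limma-voom called 0 in every other setting run. The 7 members with an unadjusted p below 0.05 were counted again under alternatives added after seeing the data. Their number became 3 with limma-voom, 10 with DESeq2 and 5 with edgeR on only the libraries compared. In edgeR it was 7 with DESeq2 scaling, 8 without a filter and 9 with the replicate block. The calls against empty vector moved more: DESeq2 called 254 genes for the tail mutant, 359 for the kinase mutant and 426 for both mutants, limma-voom 0, 0 and 1, edgeR without a filter 9, 2 and 49, and edgeR on only the libraries compared 0 and 0 for each mutant. With 1 library left out edgeR called 0 to 20, 0 to 2 and 0 to 12 genes. A group left with 1 library was assumed to vary like the others. The cause of these shifts was not tested.

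Whether the replicate numbers pair the samples cannot be decided from 2 libraries per group. Deviations from the group means correlated at 0.12 between empty vector and tail mutant and at -0.13 between empty vector and kinase mutant. Between the mutants they correlated at -0.35. With the replicate block edgeR called 2 genes for the tail mutant, 2 for the kinase mutant, 2 for both mutants and 0 between the mutants.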
